A study of Mus musculus with 30 samples.

Results

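The receptors for estrogen and progesterone and an estrogen-induced coactivator were followed in the colon of mice on a control or a high-fat diet. The genes were Esr1, which encodes ERα, Esr2, which encodes ERβ, Gper1, which encodes the G protein-coupled estrogen receptor, Pgr, which encodes the progesterone receptor, and Greb1, whose product binds ERα and assists its activity at target genes. The set was defined by gene names, with earlier results of these data known, and makes up 5 of the 46078 genes counted. The study had already listed Esr1 and Pgr among its HFD-regulated genes in females. RNA-seq was performed on the colon of 30 C57BL/6J mice, 6 in each of 5 groups. The mice were 5 to 6 weeks old at the start. Females (CD F) and males (CD M) on a control diet were compared with females (HFD F) and males (HFD M) on a high-fat diet, and each diet was given for 13 weeks. These 4 groups were injected with vehicle. A further group of HFD males (HFD+E2 M) was injected with estradiol (E2) at 0.5 mg/kg of body weight, and all mice had 9 intraperitoneal injections over the last 3 weeks. The females kept their ovaries, the labels name no genetic change, and E2-treated females were not analysed here. By the study's account their estrous cycle was not monitored, so its part in the values of females was not tested. The labels give the tissue as colon and the study's text speaks of distal colon. Markers of columnar epithelium, smooth muscle, fibroblasts and macrophages were detected in every library, so each library pooled RNA of several cell types.

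ERα and ERβ are ligand-activated transcription factors that bind estrogen response elements, in which inverted copies of GGTCA lie 3 bases apart, and they also act through other factors bound to DNA. Pgr and Greb1 are textbook targets of ERα in the reproductive tract and the breast, so their RNA is often read together with that of the receptor. ERβ is known as the main estrogen receptor of the colonic epithelium, whereas ERα is better known in stromal and smooth muscle cells and in reproductive tissue. GPER1 signals from membranes, and the receptors rest in complexes with heat shock chaperones until they bind hormone.

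Esr1 lies on the forward strand of chromosome 10, from 4611593 to 5005614 of GRCm38, and Esr2 on the reverse strand of chromosome 12, from 76120419 to 76177259. Gper1 lies on the forward strand of chromosome 5 (139423151 to 139427800), Pgr on the forward strand of chromosome 9 (8899833 to 8968611) and Greb1 on the reverse strand of chromosome 12 (16670615 to 16800886). The promoter windows of 4 of these genes are shown because Pgr, Esr1 and Greb1 were high in the same libraries and Esr2 was not. Each covers 250 bases before and 50 bases after a RefSeq start site of GRCm38.p6, with the GGTCA motif, or TGACC where it lies on the other strand, in capitals.
Pgr, chr9:8899583-8899882, forward strand: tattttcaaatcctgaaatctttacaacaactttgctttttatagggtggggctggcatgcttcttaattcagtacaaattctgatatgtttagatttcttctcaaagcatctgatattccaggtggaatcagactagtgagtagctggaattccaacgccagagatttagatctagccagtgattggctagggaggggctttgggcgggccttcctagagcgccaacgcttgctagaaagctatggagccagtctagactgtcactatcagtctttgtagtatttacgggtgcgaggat
Esr1, chr10:4611739-4612038, forward strand: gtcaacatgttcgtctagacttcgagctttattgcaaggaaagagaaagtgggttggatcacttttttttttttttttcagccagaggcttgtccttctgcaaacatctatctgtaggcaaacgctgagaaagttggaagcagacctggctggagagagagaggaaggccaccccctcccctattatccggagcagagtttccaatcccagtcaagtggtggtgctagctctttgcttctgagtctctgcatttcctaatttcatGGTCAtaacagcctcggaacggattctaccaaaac
Greb1, chr12:16800837-16801136, reverse strand: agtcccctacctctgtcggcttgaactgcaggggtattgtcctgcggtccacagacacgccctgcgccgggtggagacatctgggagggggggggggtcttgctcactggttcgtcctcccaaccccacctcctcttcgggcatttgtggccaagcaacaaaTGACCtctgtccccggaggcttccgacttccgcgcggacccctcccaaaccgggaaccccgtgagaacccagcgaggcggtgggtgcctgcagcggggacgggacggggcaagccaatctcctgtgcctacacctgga
Esr2, chr12:76177210-76177509, reverse strand: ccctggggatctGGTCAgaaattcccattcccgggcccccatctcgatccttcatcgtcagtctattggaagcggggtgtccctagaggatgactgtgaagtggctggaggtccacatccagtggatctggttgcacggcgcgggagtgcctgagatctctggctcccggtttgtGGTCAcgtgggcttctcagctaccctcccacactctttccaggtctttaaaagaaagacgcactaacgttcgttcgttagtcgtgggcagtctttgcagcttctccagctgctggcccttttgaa

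The window shown for Pgr held no such motif, that for Esr1 held 1, that for Greb1 held 1 and that for Esr2 held 2. A second window of Greb1, not shown, held 2, and a second window of Esr1 held none. At least 2 such motifs were present in 10.8% of all windows. The motif was present in 4 of the 7 windows listed for the 5 genes and in 40.5% of all 32851 mouse promoter windows. The full element, GGTCA followed by TGACC after 3 bases, was in none of the 7 windows and in 0.070% of all windows. These matches describe letters in a window and not binding.

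The counts per library ranged from 8667177 to 17243712, of which 26.1% to 38.0% fell on mitochondrial genes. At this depth Esr1 was covered by 56 to 316 counts per library, Greb1 by 38 to 160, Esr2 by 16 to 84, Gper1 by 5 to 31 and Pgr by 2 to 229. Gper1 had fewer than 10 counts in 11 libraries and Pgr in 18, which limits what could be tested for them. Libraries of the HFD groups stood apart in another way. The summed level of 8 markers of stratified squamous epithelium (Krt5, Krt13, Krt14, Krt4, Krt6a, Dsg3, Sprr3 and Krt15), a tissue that the colon itself lacks, was 0.159 to 4.92 TPM in CD F and 0.478 to 13.4 TPM in CD M. It was 0 to 1.23 TPM in HFD+E2 M, but reached 1324 TPM in HFD F and 341 TPM in HFD M. In the HFD females it was 1241, 2.16, 1159, 1324, 218 and 0.308 TPM in replicates 1 to 6. Smooth muscle (8 genes), fibroblast (6 genes) and columnar epithelium markers (6 genes) were present in every library, with summed levels of at least 2483, 297 and 1836 TPM, and no smooth muscle or fibroblast marker was at 0.

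The 5 genes were expressed at low levels, with Esr1 the highest and Pgr the lowest. TPM, which scales counts by gene length and to a fixed total, allows genes to be compared. Over all 30 libraries, Esr1 had the highest mean level at 2.80 ± 1.51 TPM (SD, n = 30), followed by Greb1 at 1.48 ± 1.03, Esr2 at 1.27 ± 0.437, Gper1 at 0.513 ± 0.148 and Pgr at 0.40 ± 0.975. The median of Pgr was 0.146 TPM, since its mean was raised by a few libraries. Esr1 exceeded Esr2 in 29 of 30 libraries, Esr2 exceeded Gper1 in 30 of 30, and Pgr was the lowest of the 5 in 28 of 30. In bulk tissue, fewer cells of an expressing type and less RNA per cell cannot be told apart.

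Some other nuclear receptor genes stood at higher levels. The mineralocorticoid receptor gene Nr3c2, which controls sodium uptake in the colon, had a mean of 54.3 ± 9.45 TPM, and the glucocorticoid receptor gene Nr3c1 had 33.9 ± 7.42 TPM. The estrogen-related receptor gene Esrra, an orphan receptor of energy metabolism that does not bind estrogen, had 19.4 ± 5.41 TPM. Of the same list, Esrrg had 4.09 ± 1.53 TPM and Esrrb 0.0090 ± 0.0216 TPM, the latter below all 5 genes. Pgrmc1, a membrane protein named for progesterone binding, had 35.1 ± 7.02 TPM. It was the highest of 7 listed genes of membrane progesterone receptors, whose mean levels had a median of 2.27 TPM and a minimum of 0.0296 TPM. The median of the mean levels was 23.3 TPM over 20 coregulator genes and 46.8 TPM over 8 chaperone genes.

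**Figure D1:**
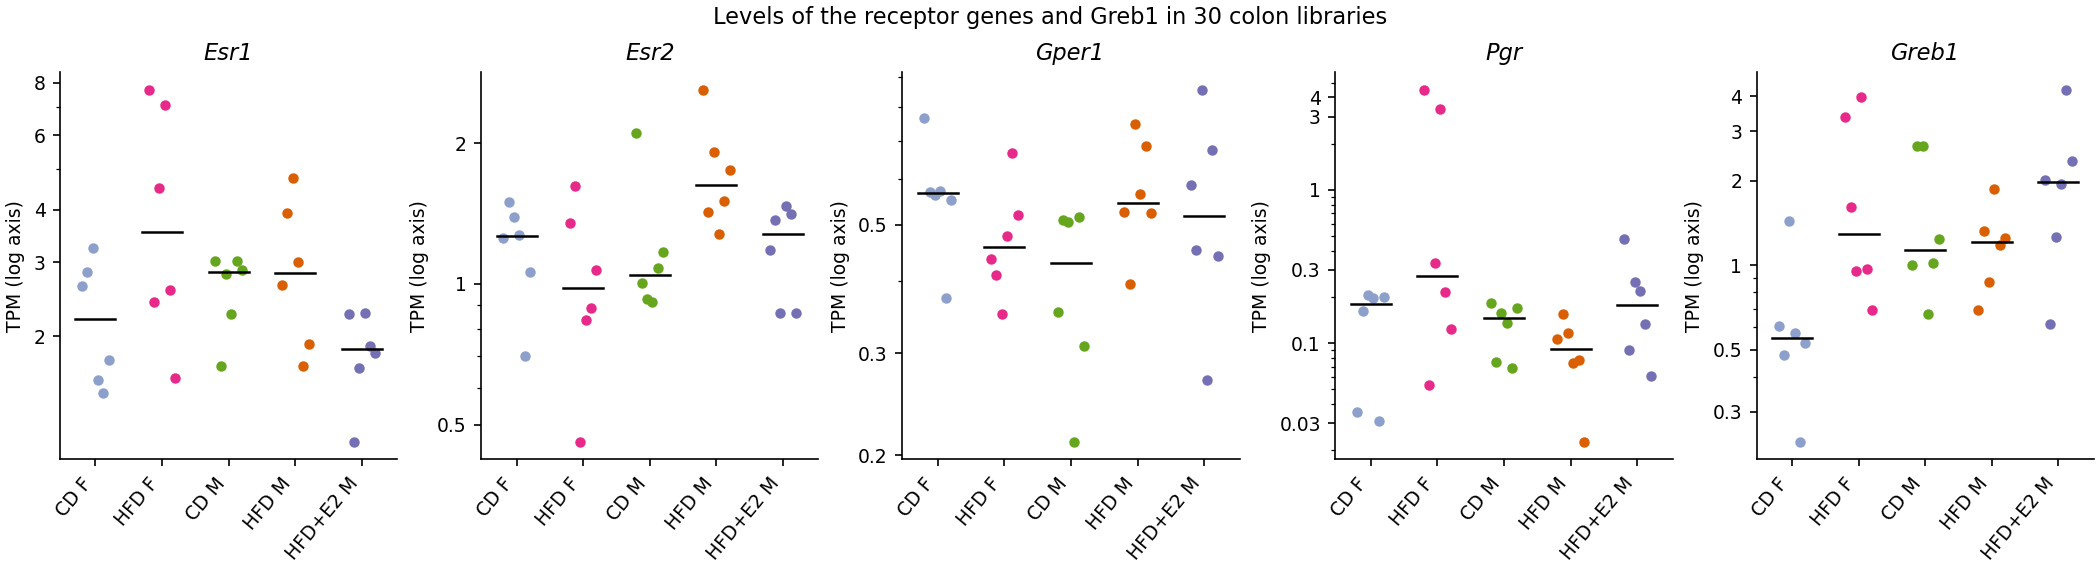
TPM of each gene on a log axis, with 1 point per animal and a black line at the median of each group of 6. In HFD F, 2 animals lie apart from the other 4 in Pgr, at 4.48 and 3.38 TPM, while Esr2 is highest in HFD M.

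The order of the groups rested on few animals. For Esr1 the mean fell from 4.31 ± 2.57 TPM in HFD F over 2.99 ± 1.17 in HFD M, 2.62 ± 0.529 in CD M and 2.25 ± 0.746 in CD F to 1.84 ± 0.424 in HFD+E2 M (SD, n = 6 in each). No neighbours in this order differed by more than the larger SD. For Esr2 the order was HFD M (1.75 ± 0.476 TPM), CD M (1.2 ± 0.452), CD F (1.2 ± 0.283), HFD+E2 M (1.19 ± 0.271) and HFD F (1.04 ± 0.408). Only the step from HFD M to CD M exceeded the larger SD, and their ranges overlapped. Gper1 lay between 0.401 ± 0.129 TPM in CD M and 0.574 ± 0.126 in HFD M, with no step over the larger SD. Pgr was highest in HFD F (1.43 ± 1.97 TPM) and HFD+E2 M (0.206 ± 0.152) and lowest in HFD M (0.0922 ± 0.0451), again with no step over the larger SD. Greb1 was highest in HFD+E2 M (2.07 ± 1.22 TPM) and lowest in CD F (0.643 ± 0.413), and the last step, from HFD M at 1.2 ± 0.411 TPM to CD F, exceeded the larger SD.

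The deposited measures did not order Greb1 alike. Counts scaled to the library total (CPM) gave all 5 groups of Esr1 and Pgr the same rank as TPM, but only 3 groups of Esr2, 2 of Gper1 and 1 of Greb1. Across the 30 libraries Greb1 varied by a coefficient of variation of 69.9% in TPM and 32.5% in CPM, with a Pearson correlation between them of 0.72, against 0.90 for Esr1 and 0.996 for Pgr. In CD F and CD M, Greb1 had 5.39 ± 1.09 and 5.95 ± 0.715 CPM (SD, n = 6). In TPM it had 0.643 ± 0.413 and 1.54 ± 0.889, with ranges of 0.234 to 1.44 and 0.669 to 2.67. The groups thus overlapped on both scales. Greb1 has 12 annotated transcripts and shares 736 exon bases with the antisense gene Gm48140, and the strand setting of the counting was not given in the sources used here. Tests were made on the counts, and TPM values of Greb1 are given beside them.

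**Figure D2:**
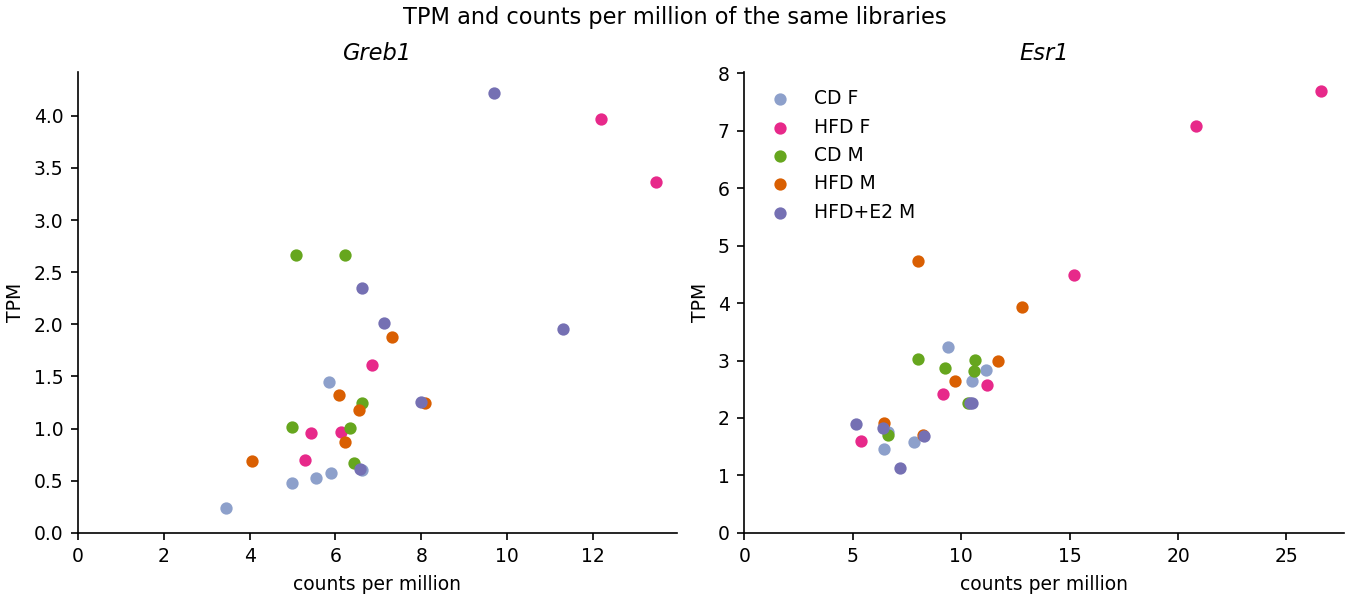
TPM (vertical) against CPM (horizontal) for Greb1 and Esr1, with 1 point per library and 6 libraries per group. TPM and CPM correlate with r = 0.72 for Greb1 and 0.90 for Esr1.

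Between HFD and CD females, Esr1, Pgr and Greb1 were higher on HFD by the study's unadjusted threshold, and this rested on some of the animals. None passed after adjustment in the fit of these 12 libraries. For Esr1 the HFD females had 7.69, 2.41, 4.50, 7.08, 2.58 and 1.60 TPM in replicates 1 to 6, against 1.47 to 3.24 TPM (median 2.20) in CD F. Replicates 1, 3 and 4 exceeded all CD females, whereas replicate 6 lay within their range. Pgr had 4.48, 0.0535, 0.335, 3.38, 0.217 and 0.124 TPM in the same order, against 0.0308 to 0.206 TPM (median 0.180) in CD F. In counts, this was 229 and 211 for replicates 1 and 4 and 5 to 19 for the other 4. Thus the 2 animals with the most Pgr were those with the most Esr1.

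Greb1 followed the same animals, with 3.37 and 3.97 TPM in replicates 1 and 4 and 0.694 to 1.61 TPM in the other HFD females, against 0.234 to 1.44 TPM in CD F. Esr2 did not, with 1.35 and 0.837 TPM in replicates 1 and 4 and 0.460 to 1.62 TPM in the others. Gper1 had 0.437 and 0.479 TPM in them and 0.350 to 0.666 TPM in the others, which overlap.

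In edgeR's quasi-likelihood test, fitted to all genes of the 12 libraries, the log2 fold change was 0.75 ± 0.29 (SE) for Esr1 (adjusted p = 0.693), 3.07 ± 0.99 for Pgr (adjusted p = 0.567) and 0.60 ± 0.23 for Greb1 (adjusted p = 0.692). Esr2, at -0.24 ± 0.24, and Gper1, at -0.26 ± 0.25, did not pass. Thus 3 of 5 genes met the study's threshold for a DEG, read as an unadjusted p under 0.05 and a log2 fold change beyond 0.4, all higher, where 2.95% of all 15061 genes tested were higher by this rule and 3.67% passed it in either direction. An unadjusted p under 0.05 alone was met by the same 3 genes and by 5.68% of all genes. None of the 5 passed an adjusted p of 0.05 in this edgeR fit, where 0.0199% of all genes did, nor in DESeq2, which gave Pgr an adjusted p of 0.0673. With all 30 libraries in one edgeR fit, Pgr passed it (3.05 ± 0.69, adjusted p = 0.0355), as did 86 of 16060 genes. A permutation test of the log2 CPM values, scaled by TMM, exact and two-sided over all splits of the 12 animals and with 0.00216 as its smallest p, gave p = 0.113 for Pgr, 0.117 for Esr1 and 0.0736 for Greb1 (n = 6 and 6). By that test 5.26% of all genes had a p under 0.05. In TPM the same exact permutation test gave p = 0.039 for Greb1 (n = 6 and 6).

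Without replicates 1 and 4 of HFD F, a choice made after seeing the data, the log2 fold change was 0.25 ± 0.24 for Esr1, 0.42 ± 0.48 for Pgr and 0.16 ± 0.18 for Greb1, and none met the DEG threshold in edgeR. Leaving out 1 library ended the call of Esr1 without replicate 1 (0.53 ± 0.27) or 4 (0.61 ± 0.29) of HFD F, and that of Greb1 without replicate 1 (0.44 ± 0.22) or 4 (0.44 ± 0.23) of HFD F or replicate 5 of CD F (0.51 ± 0.24). Esr1 also missed the threshold with the smooth muscle score as a covariate (0.67 ± 0.33) and in limma on log2(TPM + 0.1) (0.75 ± 0.36). Pgr missed it in limma on log2(TPM + 0.1) (1.54 ± 0.76) and log2(TPM + 1) (0.74 ± 0.39).

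The squamous markers moved with these genes. Replicates 1, 3, 4 and 5 of HFD F held 218 to 1324 TPM of them and replicates 2 and 6 held 2.16 and 0.308. Replicate 3 had 1159 TPM of squamous markers with Pgr at 0.335 and Greb1 at 0.956 TPM, while replicates 1 and 4, at 1241 and 1324 TPM, had Pgr at 4.48 and 3.38 TPM. With the mean log2 CPM of these markers as a covariate, the log2 fold change of Esr1 was -0.28 ± 0.25, that of Pgr -0.43 ± 1.21 and that of Greb1 0.17 ± 0.29. Their part in the differences was not tested otherwise. Adipocyte markers (5 genes) summed to 33.7 and 25.8 TPM in replicates 1 and 4, 8.49 to 13.3 TPM in the other HFD females and 5.93 to 18.2 TPM in CD F, and their part was not tested. Of 6 fibroblast markers, 3 were higher on HFD by the unadjusted threshold and none lower, with summed levels of 438 to 896 TPM in HFD F and 297 to 583 TPM in CD F, and their part was not tested.

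**Figure D3:**
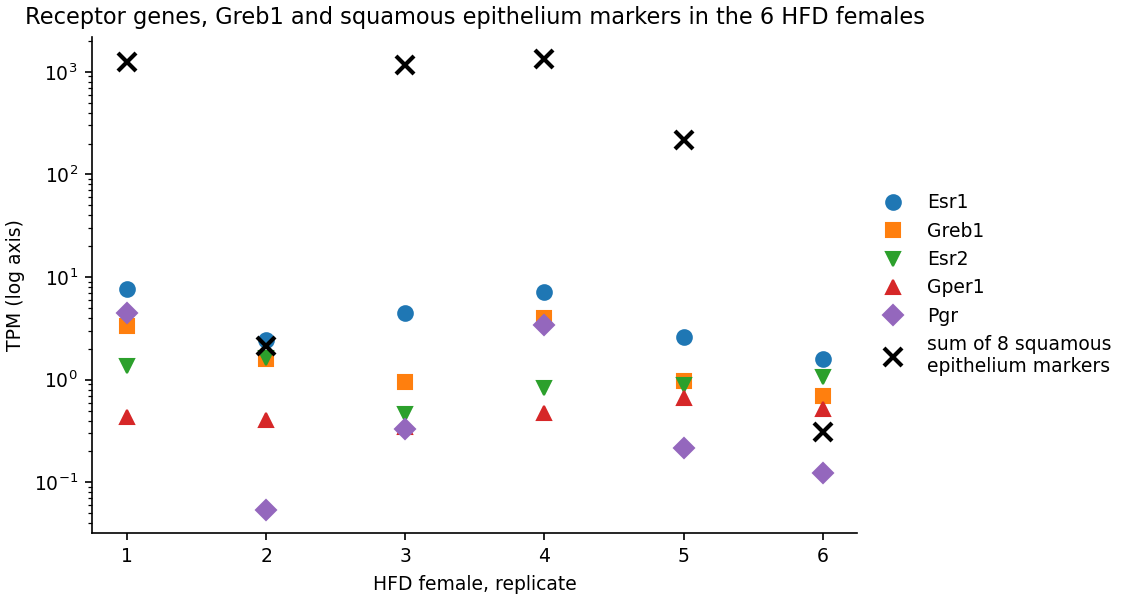
TPM (log axis) of the 5 genes and of the sum of 8 squamous epithelium markers in the 6 HFD females, by replicate number. Pgr, Esr1 and Greb1 are highest in replicates 1 and 4, while the squamous markers also reach 1159 TPM in replicate 3, where Pgr is 0.335 TPM.

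Between HFD and CD males, Esr2 was higher on HFD in the permutation test and by the unadjusted threshold, but not after adjustment. Esr2 had 4.08 to 5.88 CPM (median 4.63) in HFD M against 2.79 to 5.05 CPM (median 3.14) in CD M, and 2 HFD males exceeded every CD male. The log2 fold change was 0.51 ± 0.18 (edgeR adjusted p = 0.727), and the exact permutation test of TMM-scaled log2 CPM gave p = 0.00866 (n = 6 and 6). On TPM the exact permutation test gave p = 0.0649 for Esr2 (n = 6 and 6), so the call depended on the measure, and in limma on log2(TPM + 1) the log2 difference was 0.32 ± 0.15, under the fold minimum. By the permutation test of log2 CPM 6.09% of all genes tested had a p under 0.05. The highest CD male, replicate 1, had 2.10 TPM of Esr2 where the other 5 had 0.916 to 1.17 TPM. With the smooth muscle score as a covariate the log2 fold change of Esr2 was 0.36 ± 0.16, under the fold minimum of 0.4. Summed smooth muscle markers ranged from 3901 to 6576 TPM in CD M and from 3766 to 5990 TPM in HFD M.

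Esr1 had 1.70 to 3.02 TPM (median 2.85) in CD M and 1.70 to 4.74 TPM (median 2.82) in HFD M, with a log2 fold change of 0.09 ± 0.18. Greb1 differed by 0.13 ± 0.16 in log2 counts and by -0.23 ± 0.33 on log2(TPM + 0.1), so its direction depended on the measure. Gper1, at 0.53 ± 0.31, had 7 to 18 counts in HFD M and 5 to 14 in CD M, and did not pass, but met the DEG threshold at 0.74 ± 0.32 with the smooth muscle score as a covariate. On TPM the exact permutation test gave p = 0.0346 for Gper1 (n = 6 and 6) and on log2 CPM p = 0.121. Pgr had 3 to 6 counts in HFD M and 3 to 11 in CD M, below the filter on low counts, and its mean log2 CPM was lower by 0.32, which the exact permutation test did not separate (p = 0.141, n = 6 and 6). Without CD M replicate 5 it was lower by 0.45 (exact permutation p = 0.0325, n = 6 and 5). In edgeR 1 of the 4 genes tested met the DEG threshold, where 2.9% of all 14991 genes did and 1.25% were higher. None of the 4 passed an adjusted p of 0.05 in edgeR or DESeq2, nor did any gene in edgeR (0%), and 1 had an unadjusted p under 0.05 in each, as had 6.03% of all genes in edgeR.

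Between E2-treated and vehicle-treated HFD males, Pgr was higher and Esr2 lower with E2 in the permutation test, and neither passed an adjusted p of 0.05 in edgeR or DESeq2. The HFD males are the same 6 animals that the diet comparison above used, so the 2 comparisons share them. Pgr had 34, 7, 20, 16, 6 and 5 counts in the 6 E2-treated males, against 5, 6, 5, 5, 4 and 3 counts in the vehicle-treated ones. In CPM, the treated males had 2.95, 0.686, 1.16, 1.33, 0.506 and 0.552, and the vehicle males 0.305 to 0.569 (median 0.388). Replicates 1 to 4 of HFD+E2 M exceeded every vehicle-treated male, and replicates 5 and 6 did not. The mean log2 CPM was higher by 0.99 with E2, and the exact permutation test gave p = 0.00649 (n = 6 and 6), where 9.1% of all genes tested had a p under 0.05. Pgr did not pass edgeR's filter on low counts. Without this filter edgeR gave a log2 fold change of 1.48 ± 0.46 with an adjusted p of 0.530, and DESeq2 gave 1.5 ± 0.52 with an adjusted p of 0.277. In TPM, E2-treated males had 0.0610 to 0.478 (median 0.176) and vehicle males 0.0227 to 0.156 (median 0.0919), and the exact permutation test gave p = 0.0866 (n = 6 and 6).

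Greb1 leaned the same way, with 60 to 138 counts (median 98.5) under E2 and 58 to 86 (median 71.5) under vehicle. Its log2 fold change was 0.32 ± 0.18 (edgeR adjusted p = 0.510). In CPM, 2 treated males exceeded every vehicle male.

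Esr2 had 3.09 to 5.07 CPM (median 4.02) with E2 and 4.08 to 5.88 CPM (median 4.63) without, and 4 treated males lay below all vehicle males. Its log2 fold change was -0.32 ± 0.18 (edgeR adjusted p = 0.512), and the exact permutation test gave p = 0.0281 (n = 6 and 6). Side by side, Esr2 differed by 0.51 ± 0.18 with HFD and by -0.32 ± 0.18 with E2 on the log2 scale, and the median of the E2-treated males (4.02 CPM) lay between those of the CD males (3.14 CPM) and the HFD males (4.63 CPM). With the squamous score as a covariate, Esr2 met the DEG threshold at -0.42 ± 0.19. Esr1 had 1.12 to 2.27 TPM (median 1.86) with E2 and 1.70 to 4.74 TPM (median 2.82) without. Its log2 fold change was -0.32 ± 0.20 (edgeR adjusted p = 0.545). With the squamous score as a covariate it was -0.11 ± 0.21, and the squamous markers reached 341 TPM in HFD M and at most 1.23 TPM in HFD+E2 M. In TPM the exact permutation test gave p = 0.039 for Esr1 (n = 6 and 6), and without HFD M replicate 6 Esr1 met the DEG threshold in edgeR at -0.42 ± 0.19. On log2(TPM + 0.1) the median of all genes itself shifted by -0.16 with E2 and by -0.11 between the sexes on CD, and Esr1 differed by -0.61 ± 0.27, which met the DEG threshold in limma, as did -0.45 ± 0.20 on log2(TPM + 1). Gper1 did not differ beyond its spread (0.03 ± 0.32). In edgeR 0 of the 4 genes tested met the DEG threshold, where 5.87% of all 15010 genes did, and 0 had an unadjusted p under 0.05, where 10.2% of all genes had. An adjusted p under 0.05 was reached by 0.00666% of all genes and by none of the 4. In DESeq2, 1 of the 5 genes, Pgr, had an unadjusted p under 0.05.

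**Figure D4:**
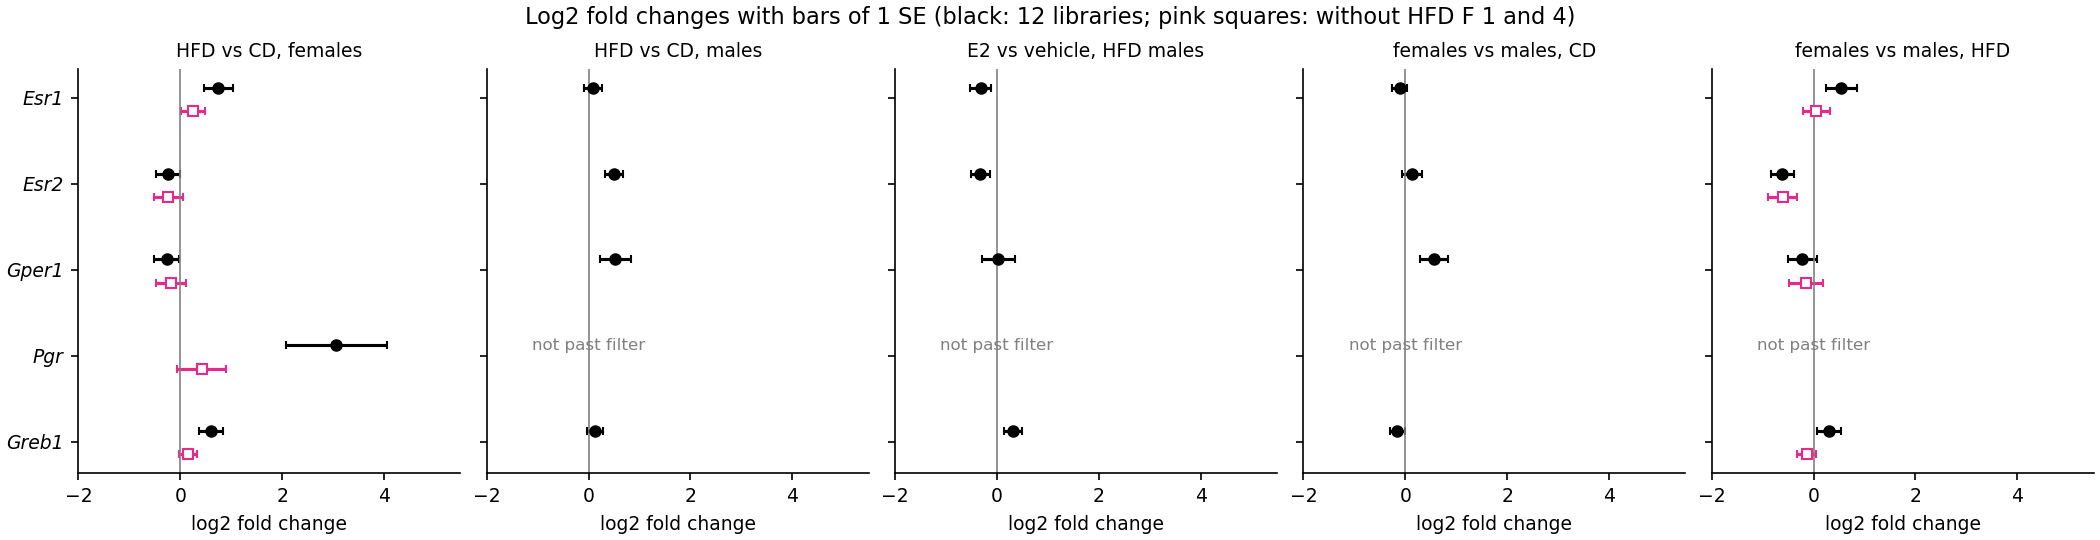
Log2 fold changes from edgeR in each comparison, with bars of 1 SE, for each gene kept by the low-count filter, and of the comparisons plotted Pgr was kept in HFD against CD females alone. Black circles use 12 libraries and pink squares leave out HFD F replicates 1 and 4, without which the 3 higher genes of HFD females move to 0.16 to 0.42.

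Between the sexes on CD, the 4 genes tested did not differ beyond the spread of the animals in edgeR. Gper1 had 9 to 14 counts in females and 5 to 14 in males, with a log2 fold change of 0.57 ± 0.28 for females over males (edgeR adjusted p = 0.359), and an exact permutation p of 0.0346 (n = 6 and 6), where 14.2% of all genes tested had a p under 0.05. Esr1 differed by -0.11 ± 0.15, Esr2 by 0.13 ± 0.19 and Greb1 by -0.16 ± 0.15. Gper1 met the DEG threshold without CD M replicate 2 (0.65 ± 0.30), 3 (0.67 ± 0.30) or 5 (0.68 ± 0.29). In TPM, Greb1 was lower in females (exact permutation p = 0.0411, n = 6 and 6), and in limma on log2(TPM + 0.1) it met the DEG threshold at -1.13 ± 0.38. With the squamous score as a covariate Gper1 met it at 0.64 ± 0.30. Pgr had 2 to 13 counts in females and 3 to 11 in males. By the DEG threshold 9.15% of all 14922 genes differed between the sexes on CD and none of the 4 tested did, nor with adjusted p, where 2.92% of all genes did. An unadjusted p under 0.05 was found for 14.8% of all genes and for none of the 4. In DESeq2 none of the 5 had an unadjusted p under 0.05. Smooth muscle markers moved in this comparison, with 8 of 8 lower in females by the DEG threshold and summed levels of 2483 to 3859 TPM in CD F and 3901 to 6576 TPM in CD M, and their part was not tested beyond the covariate fit, in which Esr2 changed to -0.10 ± 0.27.

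On HFD, Esr2 was lower in females than in males in the permutation test and by the unadjusted threshold. It had 1.45 to 4.94 CPM (median 3.25) in HFD F and 4.08 to 5.88 CPM (median 4.63) in HFD M, and 5 of 6 females lay below all males. The log2 fold change was -0.62 ± 0.23 (edgeR adjusted p = 0.872), and the exact permutation test gave p = 0.00649 (n = 6 and 6), where 5.28% of all genes had a p under 0.05. Without replicates 1 and 4 of HFD F it was -0.61 ± 0.28, with an exact permutation p of 0.0143 (n = 4 and 6). With the squamous score as a covariate it was -0.41 ± 0.22, which did not meet the DEG threshold. The squamous markers were at 0.308 to 1324 TPM in HFD F and 0.0768 to 341 TPM in HFD M.

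Pgr was higher in HFD females, with 5 to 229 counts against 3 to 6 in HFD males. The mean log2 CPM differed by 2.23 (exact permutation p = 0.00866, n = 6 and 6), and 5 of 6 females exceeded all males. Without replicates 1 and 4 the difference was 0.90 (exact permutation p = 0.0190, n = 4 and 6). DESeq2 gave a log2 fold change of 3.93 ± 0.90 with an adjusted p of 0.00708, and edgeR without its filter on low counts gave 3.93 ± 1.09 with an adjusted p of 0.720. Esr1, at 0.55 ± 0.31, and Greb1, at 0.31 ± 0.23, did not pass, and without the 2 libraries they were 0.05 ± 0.27 and -0.13 ± 0.19. Esr1 met the DEG threshold at 0.71 ± 0.26 without HFD F replicate 6 and at 0.54 ± 0.24 with all 30 libraries in one fit. In edgeR 1 of the 4 genes tested, Esr2, met the DEG threshold, where 3.09% of all 15179 genes did and 1.08% were lower. An unadjusted p under 0.05 was found for 5.09% of all genes, and none of the 4 passed an adjusted p of 0.05, where 0.0988% of all genes did.

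Whether HFD acted differently in the sexes was tested by the interaction of sex and diet over the 24 vehicle-treated mice. Esr2 differed by -0.75 ± 0.30 in log2, the change in females minus that in males (edgeR adjusted p = 0.665), and by -0.73 ± 0.33 without replicates 1 and 4 of HFD F. Pgr differed by 3.55 ± 1.16 (adjusted p = 0.603) and by 0.92 ± 0.58 without these 2. Esr1 differed by 0.65 ± 0.36, and met the DEG threshold without HFD F replicate 2 (0.76 ± 0.35) or 6 (0.82 ± 0.31) or HFD M replicate 2 (0.76 ± 0.36). Greb1 differed by 0.46 ± 0.28 in counts and did not pass, but met the threshold in limma on log2(TPM + 0.1) (1.55 ± 0.57) and log2(TPM + 1) (0.90 ± 0.35). Gper1 differed by -0.79 ± 0.38 (adjusted p = 0.733) and by -0.70 ± 0.42 without HFD F replicates 1 and 4. Thus 3 of 5 genes passed the unadjusted threshold, where 5.18% of all 15800 genes did and 6.75% had an unadjusted p under 0.05. None passed an adjusted p of 0.05 in edgeR or DESeq2, nor did any of the 15800 genes in edgeR (0%). With single libraries left out, Gper1 no longer met the DEG threshold in 15 of 24 fits, and its values lay between -0.93 and -0.65. In DESeq2 the unadjusted p was under 0.05 for Pgr and Esr2. Esr2 no longer met the DEG threshold with the squamous score (-0.52 ± 0.29) or the smooth muscle score (-0.54 ± 0.29) as a covariate, nor did Pgr (1.56 ± 1.05) or Gper1 (-0.66 ± 0.42) with the squamous score. Pgr also missed it in limma on log2(TPM + 1) (0.79 ± 0.41), and Gper1 in DESeq2 (-0.82 ± 0.46), without a filter on low counts (-0.78 ± 0.43) and on log2(TPM + 1) (-0.25 ± 0.12).

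The Esr1 to Esr2 ratio in TPM, which sets the 2 nuclear estrogen receptors against each other in each animal, was 1.24 to 2.33 in CD F, 1.43 to 3.04 in CD M, 1.02 to 2.75 in HFD M and 0.822 to 2.11 in HFD+E2 M. In HFD F it spread from 1.49 to 9.78. The mean log2 ratio was higher by 1.04 in HFD F than in CD F (exact permutation p = 0.0931, n = 6 and 6) and by 1.21 than in HFD M (p = 0.0736, exact permutation, n = 6 and 6), and with E2 it differed by -0.10 (p = 0.773, exact permutation). None of the 5 comparisons reached a p under 0.05 for this ratio. In none of them did the groups of any of the 5 genes lie fully apart in log2 CPM, which was the case for 0.206% of all genes tested with HFD in females, 0.36% with HFD in males, 0.426% with E2, 2.1% between the sexes on CD and 0.376% on HFD.

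The genes whose levels ran most closely with each receptor gene, after the mean of each group was removed, are given next. Over 30 libraries, the genes nearest to Esr1 included Eya1 (Pearson r = 0.80), Gsta4 (0.76), Pkp1 (0.76), a plakophilin of squamous desmosomes, and the squamous keratin gene Krt6a (0.75). Without HFD F replicates 1 and 4 these were 0.76, 0.72, 0.61 and 0.67. The genes nearest to Esr2 were Tnfaip3 (0.75), an inhibitor of NF-κB signaling, Nsg1 (0.74), Erlin2 (0.74), Maoa (0.74), which encodes monoamine oxidase A, and Slc26a2 (0.73), a sulfate transporter gene. Nearest to Gper1 were Gm11437 (0.69), Sepp1 (0.67), Kansl1 (0.65), Clint1 (0.65) and Ankrd40 (0.64), and nearest to Greb1 were Fbxo21 (0.68), Rnf43 (0.66), Mir151 (0.65), Gpam (0.63) and Smo (0.63). The libraries share depth and tissue composition, so these values describe likeness only. Among the 5 genes, Esr1 and Pgr had r = 0.77 over 30 libraries and 0.57 without the 2 libraries, while Pgr and Greb1 had 0.62 and 0.05 and Esr1 and Greb1 had 0.45 and -0.0015. Esr1 and Esr2 had r = -0.10.

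Estrogen-induced genes known from other tissues were described from a list of 16 genes, of which 13 were tested in the diet and E2 comparisons. With HFD in females, 3 of 13 met the DEG threshold and were higher, where 2.95% of all genes tested were higher by this rule, with a median log2 fold change of 0.12 against 0.00 over all genes. Wnt4, a secreted factor of the reproductive tract, had 3.02, 0.814, 3.88, 1.91, 0.815 and 0.590 TPM in HFD F replicates 1 to 6, and its log2 fold change was 1.54 ± 0.43 (edgeR adjusted p = 0.496). The 3 animals with the most Wnt4, replicates 1, 3 and 4, were those with 1159 to 1324 TPM of squamous markers, whose part was not tested. Igf1, the growth factor gene, had 5.89 and 4.60 TPM in HFD F replicates 1 and 4 and 1.44 to 3.08 TPM in the others, with 0.66 ± 0.20 (edgeR adjusted p = 0.500). With E2, 1 of 13 was higher and 1 lower, where 5.87% of all genes met the threshold in either direction, with a median of 0.06 against 0.00 over all genes. Muc1, a membrane mucin gene, had 13.2 to 17.5 TPM in 5 E2-treated males and 11.7 TPM in the sixth, against 9.01 to 14.1 TPM in HFD M, and its log2 fold change was 0.44 ± 0.17 (edgeR adjusted p = 0.461). Areg, also on the list, went the other way. It had 2.79 to 7.89 TPM (mean 4.93 ± 1.71, SD) in HFD+E2 M and 4.72 to 15.4 TPM (mean 8.87 ± 3.55) in HFD M. With HFD in males, where 2.9% of all genes met the threshold, 1 of 13, Ccnd1, was lower, at -0.41 ± 0.10 (edgeR adjusted p = 0.490), and none was higher.

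Between the sexes on CD, Igf1 was lower in females by -0.69 ± 0.13 (edgeR adjusted p = 0.0081) and Ccnd1, which encodes cyclin D1, by -0.43 ± 0.11 (edgeR adjusted p = 0.0484). These were the 2 of 13 tested genes of the list that passed the adjusted threshold, where 2.92% of all genes did. By the DEG threshold 3 of the 13 were lower and 1 was higher, where 9.15% of all genes met it. In the same comparison 4 of 6 fibroblast markers (2 by adjusted p), 8 of 8 smooth muscle markers (4 by adjusted p) and 2 of 5 endothelium markers (1 by adjusted p) were lower in females, with medians of -0.55, -0.63 and -0.39. Summed fibroblast markers were at 297 to 583 TPM in CD F and 541 to 896 TPM in CD M, and the part of these markers in the differences was not tested. Ltf, which encodes lactoferrin and is a classical estrogen-induced gene of the uterus, is named after its values were seen. It had 4942, 2, 3022, 491, 639 and 15 counts in HFD F replicates 1 to 6 and 0 to 1043 in HFD M, where replicates 2 and 4 held 1043 and 482. In HFD+E2 M it had 0 to 7 counts. In HFD F the 4 libraries with 491 to 4942 counts of Ltf were those with 218 to 1324 TPM of squamous markers. Among them the orders differed, since replicate 4, at 1324 TPM, had 491 counts and replicate 5, at 218 TPM, had 639. In HFD M, replicates 2 and 4 also held the most squamous markers, at 341 and 100 TPM. In CD M, replicates 3 and 6 held the most of both, with 102 and 35 counts of Ltf and 13.4 and 9.65 TPM of squamous markers. The part of squamous epithelium in the Ltf counts was not tested.

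Genes that work with the receptors are set beside the share of all genes that met the DEG threshold. That share was 3.67% with HFD in females, 2.9% with HFD in males and 5.87% with E2. Between the sexes it was 9.15% on CD and 3.09% on HFD. Of the 19 coregulator genes tested, none met the DEG threshold with HFD in females or with E2, and 1, Pelp1, was lower with HFD in males (-0.45 ± 0.16, edgeR adjusted p = 0.716). Between the sexes, 1 coregulator gene was higher in females on HFD. Of the 8 chaperone genes, 1 met it with E2. This was Ptges3, which encodes the p23 cochaperone of HSP90, with -0.43 ± 0.15 (edgeR adjusted p = 0.456). None of the 4 other steroid and estrogen-related receptor genes tested or the 5 tested genes of membrane progesterone receptors met the threshold in any of the 5 comparisons. Of 8 tested genes that progesterone is known to induce, Sgk1, a kinase gene that glucocorticoids and aldosterone also induce, was higher with HFD in males (0.77 ± 0.29, edgeR adjusted p = 0.807) and lower with E2 (-0.72 ± 0.32, edgeR adjusted p = 0.479). These 2 values share the HFD males as well. In females on HFD, Per1, a clock gene, was higher (0.64 ± 0.22) and Errfi1 lower (-0.67 ± 0.21), with adjusted p = 0.578 and 0.531 in edgeR. Between the sexes, 1 of these 8 genes was higher and 1 lower in females on CD, and 1 was lower on HFD. No gene of these lists other than Igf1 and Ccnd1 passed the adjusted threshold in any of the 5 comparisons.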

How the data were processed

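Colon RNA of 30 mice was sequenced after removal of ribosomal RNA. The authors mapped the reads to GRCm38 with STAR and deposited raw counts per gene from featureCounts and TPM values from StringTie, which were used as deposited. Trim Galore and bcl2fastq 2.19.1.403 are named in the submitters' processing notes. TPM entries of a gene listed more than once (17 genes) were summed. Groups came from the sample titles. Each comparison was fitted to the counts of its 12 libraries, and the interaction to 24, with edgeR 4.0.16 in R 4.3.3 (filterByExpr, TMM, robust quasi-likelihood F-test, Benjamini-Hochberg adjustment over all genes tested), and the SE follows from the F statistic. A permutation test, exact and two-sided, on log2 CPM with a prior count of 2 was run for 25 pairs of gene and comparison in Python 3.11.15 with numpy 2.4.6, of which 6 had p under 0.05. The same test was run on TPM for the same 25 pairs and on the Esr1 to Esr2 ratio in each comparison. None of these p-values was adjusted, and those on TPM have no share over all genes beside them. Alternatives were DESeq2 1.42.0 and its size factors, other filters, all 30 libraries in one fit, a replicate block, removal of mitochondrial genes, limma 3.58.1 on log2(TPM + 0.1 or 1), covariate scores and single libraries left out. Named are all 5 members, up to 5 genes of a list past adjusted p 0.05 or else the 2 with the lowest p, and the 5 genes most like a member of at least 0.5 mean TPM among genes of at least 1 TPM. One gene of that rule is not reported here. The members and lists were chosen with earlier results of these data known. Labels do not name separate litters or cages. The p-values treat the animals as independent, and spread that same-numbered animals may share was not separated in the main fits.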

Additional observations from a re-analysis of the deposited data

Results flagged for a closer look

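In 2 of the 25 combinations of gene and group, 1 animal lay far from the other 5 by Dixon's criterion, which chance meets in about 1 group in 20. Esr2 in CD M was highest in replicate 1, at 2.10 TPM against 1.17 TPM in the next animal, and this gap took a share of 0.786 of the range of the group. Greb1 in CD F was highest in replicate 3, at 1.44 TPM against 0.606 TPM in the next, a share of 0.692. In counts, that library had 68 counts of Greb1 and the other CD females had 38 to 61. Scaled to the library total it was not the highest, with 5.85 CPM against 6.61 in replicate 1 and 5.90 in replicate 4.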

How the results depend on the processing

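The 35 results were recomputed under 750 alternatives, of which 718 kept the direction and the side of the threshold. That threshold was an adjusted p of 0.05 or, where Pgr was filtered out, an exact permutation p of 0.05. None of the genes passed the adjusted p in the main edgeR fits, so this count does not show that calls by the DEG threshold were stable. With single libraries left out, Esr1 with HFD in females met the DEG threshold in 10 of 12 fits and Greb1 in 9 of 12. Gper1 in the interaction met it in 9 of 24. The sign changed in 21, and the cause was not tested. With the squamous score as a covariate, Esr1 was at -0.28, Esr2 at 0.12 and Pgr at -0.43 with HFD in females, Esr1 at -0.047 with HFD in males, Gper1 at -0.14 with E2 and Esr1 at -0.016 between the sexes on HFD. With the smooth muscle score, Gper1 was at -0.0011 with E2 and Esr2 at -0.10 between the sexes on CD. On log2(TPM + 0.1) and log2(TPM + 1), Greb1 was at -0.23 and -0.16 with HFD in males, also at -0.16 among genes of at least 1 TPM, and Gper1 at -0.10 and -0.032 with E2. Pgr was at -0.018 between the sexes on CD on log2(TPM + 0.1). Pgr with HFD in females passed the adjusted threshold, at 3.05, with all 30 libraries in one fit. Pgr with E2 and between the sexes on HFD was read by an unadjusted exact permutation p. With E2 it was at 0.57 and 0.13 on log2(TPM + 0.1) and log2(TPM + 1), with exact permutation p = 0.0996 and 0.0887, and at 1.5 in DESeq2, 1.48 without a filter and 1.49 with all 30 libraries, where the adjusted p was 0.277, 0.530 and 0.388. The unadjusted p was under 0.05 in the first 2 of these 3 fits. Between the sexes on HFD it was at 3.93 without a filter in edgeR, past an unadjusted but not an adjusted p of 0.05. The rank of the groups in CPM equalled that in TPM for 3 groups of Esr2, 2 of Gper1 and 1 of Greb1. With single libraries left out, Esr1 with HFD in males ranged from -0.017 to 0.19, Pgr from -0.45 to -0.24, Gper1 with E2 from -0.19 to 0.18 and Greb1 between the sexes on HFD from 0.14 to 0.41, or -0.13 without both HFD F replicates 1 and 4, an alternative chosen after seeing the data.

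Same-numbered animals did not deviate together in all pairs, with correlations from 0.0457 to 0.369 with HFD in females. Over the comparisons they ranged from -0.246 to 0.514, and the numbers were not taken as pairs in the main fits. Some likeness by number was present. Of 6 animals, 4 correlated best with their own number with HFD in males, with E2 and between the sexes on CD. This held for 0 with HFD in females and 1 between the sexes on HFD. A correlation over 0.1 was found in 3 to 5 of the 6 pairs, and what same-numbered animals share was not tested. With the replicate block, Gper1 was at -0.0062 with E2, Pgr at 2.17 with HFD in females and Gper1 at -0.81 in the interaction. The last 2 were no longer under an unadjusted p of 0.05. Esr2 with HFD in males was at 0.51 ± 0.16 with this block and still met the DEG threshold. None of the 5 genes passed an adjusted p of 0.05 with it. Low counts of Pgr and Gper1 limit what these depths can separate.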
